A study of Sus scrofa with 6 samples.

Results

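Long non-coding RNAs (lncRNAs) that lie antisense to a protein-coding gene were examined in pig testis samples labelled as spermatogonia, with and without retinoic acid, the vitamin A derivative that starts spermatogonial differentiation. A member was a row typed as non-coding RNA, at least 200 bases long, averaging 0.5 FPKM or more across the 6 libraries, whose genomic span overlapped a protein-coding row on the opposite strand. FPKM is the number of sequenced fragments scaled to gene length and to the size of the library. The rule was met by 227 of the 29884 rows of the table. The levels that chose the members were averaged over both groups, so a lncRNA that is high in 1 group could enter through that group alone.

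All 6 libraries were made from total RNA of pig (Sus scrofa) testis, labelled as primitive spermatogonia. In the 3 control libraries the retinoic acid was replaced by 0.1% ethanol. In the 3 RA libraries all-trans-retinoic acid was present at 2 umol/L. The age of the animals and the time under treatment are not stated in the labels, nor is it said that the replicates came from separate cultures or animals, so every p-value measures only the spread between these libraries. The library totals recovered from the table ran from 62084199 to 87520891 reads.

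An antisense lncRNA is transcribed from the strand opposite to another gene and can share sequence, promoter region or end region with it. Some antisense RNAs in mammals are known to act on the neighbouring gene through transcription itself, through chromatin or by pairing with its mRNA, while many have no known function. The testis is known for transcribing many lncRNAs, and pairs that start close together on opposite strands are common there. The members were therefore grouped by layout. A pair is head to head where the 5' ends overlap and tail to tail where the 3' ends do, and otherwise one gene lies within the span of the other.

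Transcripts of supporting cells were abundant in these libraries. The Sertoli cell marker CLU was at 9242 ± 233 FPKM in control (SD, n = 3), while the germ cell marker DDX4 was at 7.10 ± 0.37 FPKM. CLU stood apart from its list. The remaining Sertoli cell markers had control means from 3.19 FPKM (INHA) to 107 (AMH). Those of the germ cell markers ran from 4.96 (TDRD1) to 121 (UCHL1). Of the 6 Sertoli cell markers, SOX9, AMH and FSHR fell (log2 changes −0.36, −0.72 and −0.77), INHA rose (0.44), and CLU and WT1 did not pass (0.07 and −0.17; limma). Their sum, mostly CLU, was 9228 to 9708 FPKM in control and 9535 to 10218 in RA. The 6 germ cell markers of the list summed to between 170 and 175 FPKM in control and between 142 and 153 in RA, and 2 of the 6 fell. Of the 6 markers of undifferentiated spermatogonia, 4 fell, and their sum was 66.9 to 69.1 FPKM in control and 45.6 to 51.8 in RA. All 5 peritubular myoid cell markers rose, with sums of 445 to 509 and 1319 to 1571 FPKM, and none was at 0 in either group. Leydig cell markers gave 2 falls among 4 tested, with sums of 80.4 to 93.4 and 59.3 to 68.6 FPKM. Of 5 endothelial markers 1 fell, with sums of 25.6 to 28.5 and 23.8 to 28.1 FPKM. Macrophage markers gave 2 rises of 5, with sums of 14.0 to 17.3 and 19.0 to 26.4 FPKM. Among all 14567 genes tested, 13.9% rose and 12.0% fell (limma), and no list was tested against these shares. RA replicate 2 differed most from its group, with a mean correlation to its group of 0.984 against 0.991 and 0.989 for RA replicates 1 and 3. In such bulk RNA, fewer cells of a type and less RNA per cell cannot be told apart.

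The 227 lncRNAs were mostly weakly expressed. Their median was 0.919 FPKM, and 121 had a mean under 1 FPKM, 95 a mean from 1 to under 10 and 11 a mean of at least 10. The weakest had 64 recovered reads summed over all 6 libraries and the median member had 833, so many of the changes below rest on few reads per library. The median length was 1623 bases, from 245 to 23134. The filter on the mean let in 28 members that reached 0.5 FPKM in control only and 17 that reached it in RA only, while 182 reached it in both groups. Just inside the threshold were LOC110260616 opposite PNPLA3 (0.501 FPKM), LOC106505895 opposite EBF2 (0.502 FPKM) and LOC102159045 opposite ADAT1 (0.514 FPKM). Among those just outside were LOC106510173 opposite HFE2 (0.498 FPKM) and LOC106505780 opposite KALRN (0.496 FPKM). Altogether 1446 of the 1673 antisense lncRNA rows were under the threshold, of which 102 were listed at 0 in every library.

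Tail-to-tail pairs were the most frequent layout, with 85 members, followed by 64 head-to-head pairs, 55 lncRNAs within the span of the partner and 23 partners within the span of the lncRNA. The overlap of the spans had a median of 3579 bases and ranged from 1 to 162503, and 23 members overlapped their partner by under 200 bases. A partner was taken as the coding gene with the longest overlap; 24 members had a second one. The partner was itself at 0.5 FPKM or more for 200 members and under it for 27. Partners had a median of 7.21 FPKM, and 87 members were under 10% of the partner's level. The lncRNA had the higher FPKM in 53 pairs. This was the case in 25 of the 85 tail-to-tail pairs, 11 of the 23 with the partner inside the lncRNA, 10 of the 55 lncRNAs inside the partner and 7 of the 64 head-to-head pairs. Across the 227 pairs the mean FPKM of the lncRNA and that of the partner had a Spearman correlation of 0.06, given as a description, since both values come from the same libraries.

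The strand setting of the library and of the counting is not given in the sources used here. Where the genes share exons, reads of a gene and of its antisense partner cannot be told apart, so a pair that moved together may hold reads of the same gene in both rows. Coordinates are those of the deposited table, whose build is not named in the sources used here.

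**Figure D1:**
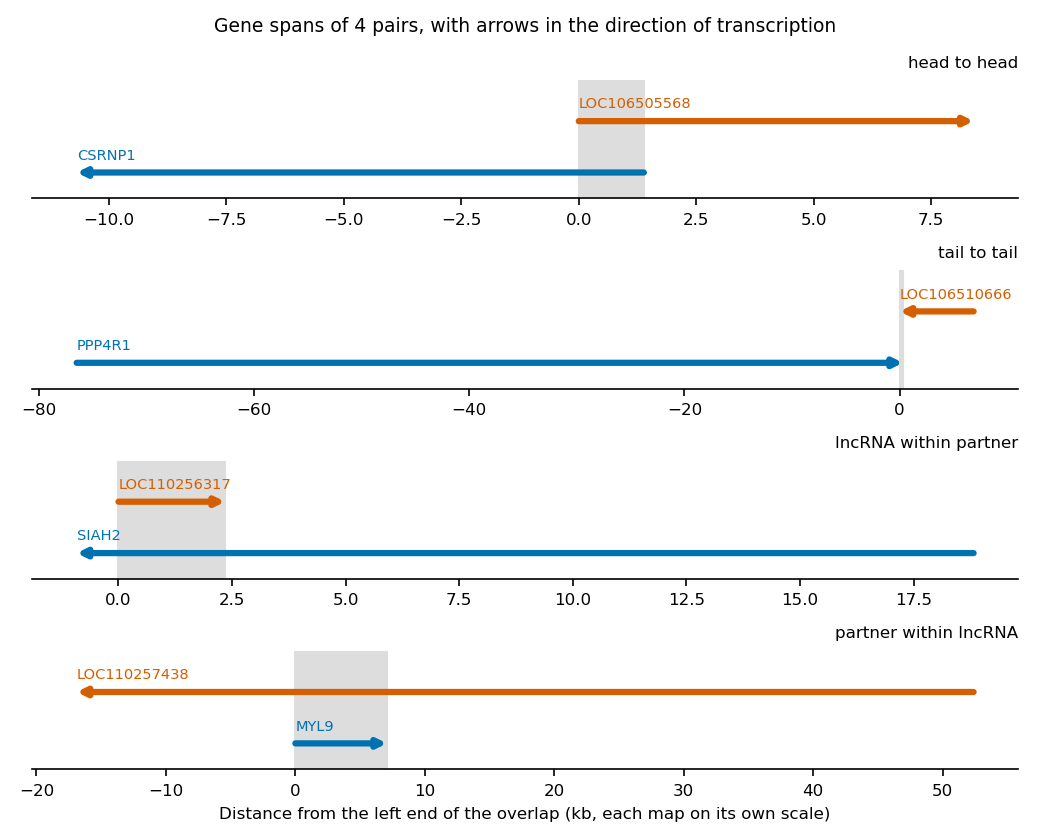
Gene spans of 4 pairs, 1 for each layout, plotted as distance in kilobases from the left end of the overlap, with arrows in the direction of transcription and the overlap shaded. The lncRNA is in orange and the partner in blue. LOC106505568 and CSRNP1 overlap by 1386 bases at their 5' ends, LOC106510666 and PPP4R1 by 314 bases at their 3' ends, LOC110256317 lies inside SIAH2 for 2346 bases, and MYL9 lies inside LOC110257438 for 7076 bases.

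Under RA, 13 of the 227 lncRNAs rose and 14 fell, and 200 did not pass the test (limma on log2(FPKM + 1), two-sided, adjusted p under 0.05 over 14567 genes). The shares were 5.73% and 6.17%, against 13.9% higher and 12.0% lower among all genes tested. The share of lncRNAs called was thus below the background in both directions. Changes were modest on this scale, from −0.92 to 0.76 with a median of −0.03, against a median of −0.01 for all genes. The groups did not overlap in 75 lncRNAs (33.0%), against 48.0% of all genes. At an unadjusted limma p under 0.05 there were 53 lncRNAs. The share of all genes at that threshold was not counted, so this number cannot be set against the background.

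Calls were made at both low and higher levels. Among the 121 with a mean under 1 FPKM, 5 rose and 7 fell, and among the 106 with a higher mean, 8 rose and 7 fell. Other lncRNAs, which overlap no coding gene on the other strand, gave 36 rises and 19 falls of 465 (7.74% and 4.09%). Protein-coding genes gave 14.3% and 12.5%, but those with a mean under 2.5 FPKM gave 5.81% and 8.45%. The differences between these sets were not tested. By layout, 2 rose and 4 fell of 64 head-to-head lncRNAs, 6 and 4 of 85 tail to tail, 4 and 6 of 55 inside their partner, and 1 and 0 of 23 that contain their partner.

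**Figure D2:**
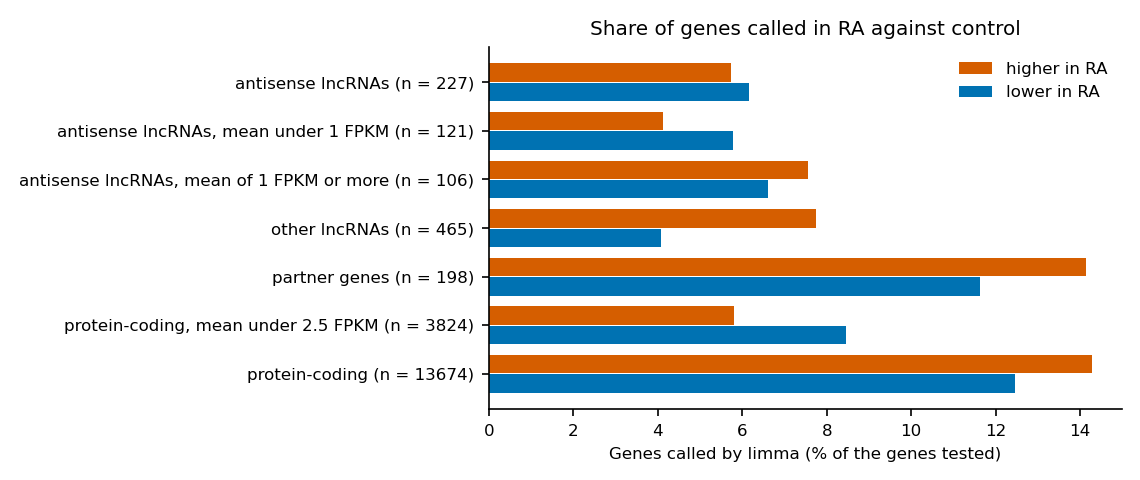
Share of genes called higher (orange) or lower (blue) in RA by limma at an adjusted p under 0.05, as a percentage of the genes tested in each set, with the number of genes in brackets. Antisense lncRNAs sit at 5.73% and 6.17%, near the other lncRNAs and the weakly expressed coding genes, while their partner genes sit at 14.1% and 11.6%, near all coding genes.

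Of the 27 called lncRNAs, 9 were under 0.5 FPKM in their lower group and entered only through the group in which they are high, so that their difference is partly set by the choice. These were 4 rises, of LOC106508380, LOC106506361, LOC100514807 and LOC106505390, and 5 falls, of LOC102165822, LOC106510666, LOC110256317, LOC110257344 and LOC102159358. With the minimum of 0.5 FPKM required in both groups, 9 lncRNAs rose and 9 fell of 182.

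The counts rest on few libraries. Without RA replicate 2, the library that differed most from its group, 13 lncRNAs rose and 20 fell. Without RA replicate 1 the counts were 5 and 10, without RA replicate 3 they were 7 and 13, and without control replicates 1, 2 and 3 they were 9 and 10, 8 and 7, and 6 and 10. Counts over all genes moved too, from 2019 higher and 1750 lower with all libraries. They were 2258 and 2256 without RA replicate 2, 1424 and 1267 without RA replicate 1, and 1896 and 1820 without RA replicate 3. Without control replicates 1, 2 and 3 they were 1332 and 1206, 1202 and 1005, and 1231 and 1113. In all 6 of these fits 12 lncRNAs were called, including LOC106505568, LOC110255499, LOC102165822, LOC106510666, LOC102165143, LOC110256317 and NHLRC3 among the falls, and LOC100512700, LOC106508380, LOC102166967 and LOC100624113 among the rises. Of these, LOC102165822, LOC106510666, LOC110256317 and LOC106508380 are among the 9 named above that entered only through their higher group. Applied to reads recovered from the FPKM values, edgeR's quasi-likelihood test called 12 higher and 13 lower of 226 lncRNAs, against 13.5% and 11.6% of all genes, and 23 lncRNAs were called by both tools. The authors' deposited table of called lncRNAs lists 28 of the 227, of which 14 are up and 14 down, and 22 of the 28 were among the 27 called by limma.

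The partner genes moved about as often as genes in general. Of the 198 partners tested, 28 rose (14.1%) and 23 fell (11.6%), with a median change of −0.03. In the 200 pairs with both genes tested, both rose in 3, both fell in 4 (4 pairs in all with the minimum in both groups), the lncRNA alone was called in 16, the partner alone in 45 and neither in 132. No pair had both genes called in opposite directions by limma or by edgeR. Without RA replicate 2 there were 2 such pairs, without RA replicate 3 there was 1, and DESeq2 gave 2. In 129 of the 200 pairs (64.5%) the changes had the same sign. In the 1132 coding pairs that overlap on opposite strands, 61.7% had the same sign, both genes rose in 37, both fell in 12, and 5 and 12 had opposite calls. The Spearman correlation of the changes across pairs was 0.34 for the lncRNA pairs and 0.31 for the coding pairs, given as a description. By layout it was 0.41 in 63 head-to-head pairs, 0.29 in 50 lncRNAs inside the partner, 0.68 in 16 partners inside the lncRNA and 0.20 in 71 tail-to-tail pairs.

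**Figure D3:**
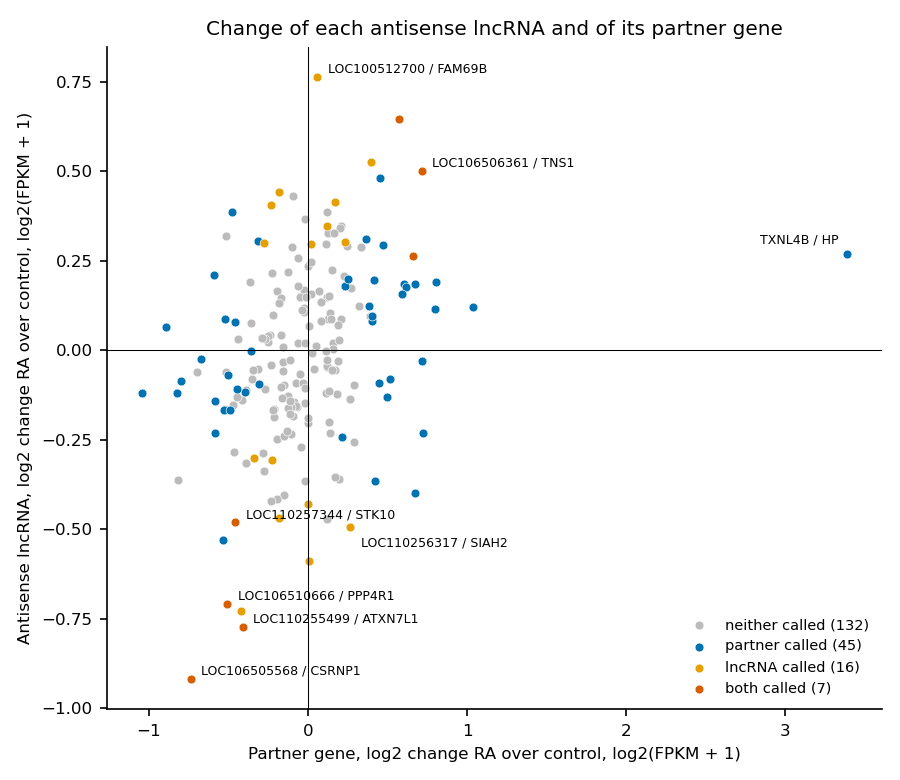
Log2 change in RA over control of each lncRNA (vertical axis) against that of its partner gene (horizontal axis), on the log2(FPKM + 1) scale, for 200 pairs, coloured by which gene limma called. The 7 pairs with both genes called lie in the lower left and the upper right of the plot, and HP stands far to the right at 3.39.

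Both genes fell in 4 pairs. The clearest was LOC106505568 with CSRNP1, a nuclear protein that acts as a transcription factor. The lncRNA starts inside the 5' part of CSRNP1 on chromosome 13 (bases 23843813 to 23852214, plus strand) and overlaps it head to head by 1386 bases. It was at 1.96, 2.29 and 1.90 FPKM in control replicates 1, 2 and 3 and at 0.471, 0.547 and 0.836 FPKM in RA replicates 1, 2 and 3. All RA libraries were below all controls, and the group means differed 3.32-fold. This rests on 97 to 143 reads per control library and 33 to 44 per RA library. The log2 change was −0.92 ± 0.11 (SE, n = 3 per group), with a limma adjusted p of 0.00115. CSRNP1 went from 60.3 ± 4.5 FPKM to 35.7 ± 0.45 (SD, n = 3), a log2 change of −0.74 (limma adjusted p = 0.000313).

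LOC106510666 and PPP4R1, a regulatory subunit of protein phosphatase 4, overlap tail to tail by 314 bases on chromosome 6. The lncRNA (bases 98539336 to 98546215, minus strand) was at 1.28, 1.83 and 1.14 FPKM in the controls and at 0.535, 0.347 and 0.532 in RA. The groups did not overlap, and the lncRNA's mean was 3.0-fold lower in RA (log2 change −0.71 ± 0.13, SE, limma adjusted p = 0.00561). PPP4R1 fell from 58.4 ± 3.0 to 40.8 ± 2.7 FPKM (SD), with a log2 change of −0.51 (limma adjusted p = 0.0021).

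LOC110255499 lies inside ATXN7L1, an ataxin-7-like gene, on chromosome 9 (bases 105733423 to 105777373, plus strand). Its replicates were close together, at 1.60, 1.62 and 1.70 FPKM in control and at 0.594, 0.533 and 0.512 in RA. With a log2 change of −0.77 ± 0.08 (SE), it had the smallest limma adjusted p of the 227 lncRNAs, 0.000513. ATXN7L1 was lower in every RA library, at 4.29, 4.73 and 4.46 FPKM against 3.08, 2.99 and 3.35, with a log2 change of −0.41 (limma adjusted p = 0.0142). The call on ATXN7L1 was lost without RA replicate 1 and without control replicates 2 or 3 (limma adjusted p = 0.0532, 0.0665 and 0.0547).

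LOC110257344 lies inside STK10, a serine/threonine kinase known from lymphocytes, on chromosome 16 (bases 52100032 to 52107137, minus strand). It was at 1.04, 0.617 and 0.753 FPKM in control and at 0.513, 0.230 and 0.147 in RA, where it had 48, 18 and 10 reads. The groups lay apart by a small margin, and the log2 change of −0.48 ± 0.13 (SE, limma adjusted p = 0.0344) was not called by edgeR (adjusted p = 0.0759). Nor was it called by limma without RA replicate 3 or without control replicates 1, 2 or 3 (adjusted p = 0.0805, 0.102, 0.0548 and 0.0871). STK10 fell from 23.0 ± 0.9 to 16.5 ± 1.3 FPKM (SD), a log2 change of −0.46 (limma adjusted p = 0.00472).

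STK10 has a second antisense lncRNA on the same strand, LOC110257343, which did not follow it. That lncRNA was at 0.934, 1.20 and 1.11 FPKM in control and at 1.09, 1.32 and 1.19 in RA, with overlapping groups and a log2 change of 0.08 (limma adjusted p = 0.559). Its ratio to STK10 was higher in RA by 0.54 on the log2 scale (limma adjusted p = 0.0176), a call lost without control replicates 1 or 2 (limma adjusted p = 0.0673 and 0.0604).

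Both genes rose in 3 pairs, among them those of TNS1 and LMOD1. LOC106506361 lies inside TNS1, which encodes the focal adhesion protein tensin 1, on chromosome 15 (bases 120131187 to 120138421, plus strand). It was at 0.334, 0.639 and 0.078 FPKM in control, from 11, 20 and 2 reads, and at 0.775, 0.860 and 1.02 in RA, from 28, 26 and 27. The controls varied widely, and the log2 change of 0.50 ± 0.15 (SE, limma adjusted p = 0.0456) was not called by edgeR (adjusted p = 0.156). It was lost in limma without RA replicates 1 or 3 and without control replicates 1 or 3 (adjusted p = 0.0777, 0.0944, 0.109 and 0.119). TNS1 itself rose from 33.9 ± 2.0 to 56.3 ± 2.7 FPKM (SD), a log2 change of 0.72 (limma adjusted p = 0.000356).

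LOC110255662 lies inside LMOD1, which encodes the smooth muscle actin nucleator leiomodin 1, on chromosome 10. This pair was picked after its values were seen. The lncRNA was at 0.892, 0.885 and 0.965 FPKM in control and at 1.28, 1.30 and 1.31 in RA. The replicates were tight and the groups apart, but the log2 change was 0.26 ± 0.08 (SE, limma adjusted p = 0.0459), and no fit without 1 library called it (limma adjusted p = 0.0659 without RA replicate 2 to 0.137 without control replicate 2). LMOD1 rose from 3.27 ± 0.07 to 5.76 ± 0.78 FPKM (SD), a log2 change of 0.66 (limma adjusted p = 0.00378).

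The rise of TNS1 and LMOD1 went with the rise of all 5 myoid cell markers given above, ACTA2 among them at 225 ± 25 FPKM in control and 786 ± 90 in RA (SD). MYL9, the smooth muscle myosin light chain inside LOC110257438, rose likewise, from 137 ± 12 to 219 ± 15 FPKM (SD, log2 change 0.67, limma adjusted p = 0.00125), while its lncRNA had a log2 change of 0.18 (limma adjusted p = 0.32). The MYL9 pair too was picked after its values were seen. MYLK, the smooth muscle kinase of the myosin light chain and partner of LOC102157484, went the other way (log2 change −0.58, limma adjusted p = 0.00745). The part of myoid cell RNA in these changes was not tested.

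**Figure D4:**
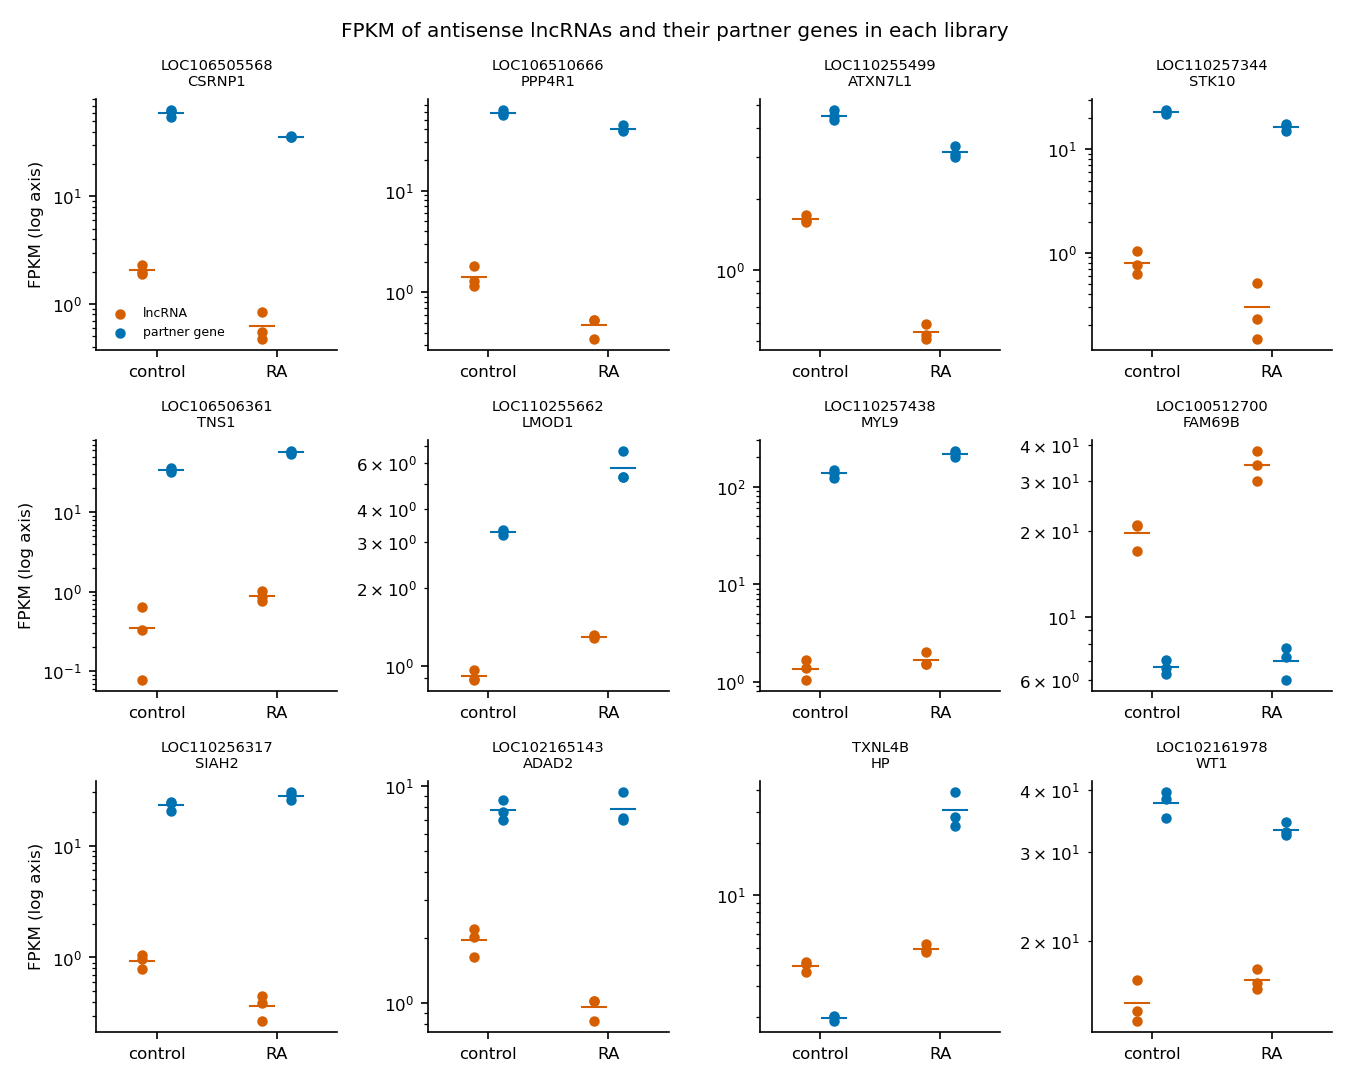
FPKM of the lncRNA (orange) and the partner gene (blue) in each library for 12 pairs, on log axes that differ between panels, with horizontal bars at the group means. The 4 pairs of the top row are lower in RA for both genes, TNS1 and LMOD1 are higher with their lncRNAs, and HP rises while TXNL4B stays within 3.64 to 5.26 FPKM.

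Other large falls belonged to lncRNAs whose partner did not pass the test. LOC102165822 overlaps the 5' end of RAB18, a small GTPase of the endoplasmic reticulum and lipid droplets, by 5 bases. It was at 1.12, 1.24 and 1.45 FPKM in control and at 0.411, 0.159 and 0.560 in RA, all RA libraries below all controls. The means differed 3.37-fold, the log2 change was −0.73 ± 0.13 (SE), and the limma adjusted p was 0.00511. RAB18 had overlapping groups and a log2 change of −0.42 (limma adjusted p = 0.102; 0.0424 without RA replicate 3). The ratio of the pair was not called on this scale either (limma adjusted p = 0.1).

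LOC102165143 runs head to head with ADAD2, a testis protein related to RNA-editing adenosine deaminases, over 5814 bases of chromosome 6. The lncRNA was at 1.63, 2.20 and 2.01 FPKM in control and at 1.02, 1.02 and 0.829 in RA. The groups were apart and the mean was 2.04-fold lower in RA (log2 change −0.59 ± 0.11, SE, limma adjusted p = 0.00613). ADAD2 stayed at 7.73 ± 0.82 and 7.82 ± 1.33 FPKM (SD), a log2 change of 0.01 (limma adjusted p = 0.965). The ratio was lower in RA, with a log2 change of −0.60 (limma adjusted p = 0.0158), a call lost without control replicates 2 or 3 (limma adjusted p = 0.0583 and 0.0648).

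LOC110256317 lies inside SIAH2, a ubiquitin ligase of the hypoxia response, on chromosome 13 (bases 90952719 to 90955064, plus strand). The pair pulled apart. The lncRNA was at 0.792, 0.965 and 1.04 FPKM in control and at 0.391, 0.270 and 0.453 in RA, so that the groups did not overlap (log2 change −0.49 ± 0.09, SE, limma adjusted p = 0.00742). SIAH2 was at 24.1, 24.3 and 20.5 FPKM in control and at 28.1, 30.0 and 25.4 in RA, also without overlap, but its log2 change of 0.27 did not pass (limma adjusted p = 0.0702; 0.0466 without RA replicate 3). The ratio was lower in RA, by −0.76 ± 0.15 on the log2 scale (SE, limma adjusted p = 0.00765), and was called in each of the 6 fits without 1 library. Since the lncRNA was under 0.5 FPKM in every RA library, it entered only through control. Its fall and that of the ratio are thus partly set by the choice. The lncRNA was 4.06% of SIAH2's level in control and 1.34% in RA.

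LOC102168027, which overlaps the weakly expressed MYRFL tail to tail, was at 2.24, 2.45 and 2.51 FPKM in control and at 1.51, 1.12 and 1.60 in RA. The groups were apart, and the log2 change was −0.50 ± 0.11 (SE, limma adjusted p = 0.0132). Without control replicates 2 or 3 the call was lost (limma adjusted p = 0.0566 and 0.0561). MYRFL was under 0.5 FPKM and was not tested.

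The remaining 6 falls were chosen after their values were seen. NHLRC3 opposite LHFP had a log2 change of −0.47, with FPKM of 5.34, 5.56 and 5.40 in control and 3.71, 3.50 and 3.74 in RA. The others were LOC102159358 inside CLMN (−0.43), LOC102165042 inside TRIM17 (−0.37), LOC102161293 inside KCNAB1 (−0.31), LOC100522818 opposite the 5' end of the drug efflux pump gene ABCB1 (−0.30) and LOC102161909 opposite the kidney salt transporter gene SLC12A1 (−0.28). For these others the limma adjusted p ran from 0.0177 to 0.0474, and each lost its call without RA replicate 1 and at least 1 other library. None of the partners tested among these 6 was called.

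The largest rise belonged to LOC100512700, which overlaps FAM69B tail to tail by 79 bases on an unplaced scaffold. It was at 20.9, 20.9 and 17.0 FPKM in control and at 34.0, 38.0 and 29.8 in RA. All RA libraries were above all controls, and with 1123 reads or more in each library it is among the better measured of the set. The log2 change was 0.76 ± 0.11 (SE, limma adjusted p = 0.00257), while FAM69B, which encodes a membrane protein of the endoplasmic reticulum, had 0.06 (limma adjusted p = 0.707). The ratio was higher in RA by 0.70 ± 0.10 (SE, limma adjusted p = 0.0012) and was called in each of the 6 fits without 1 library. Relative to FAM69B the lncRNA went from 295% to 486%.

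The most abundant member, LOC100624113, also rose. It lies inside the span of HSPA1L, a testis member of the HSP70 chaperone family, on chromosome 7 (bases 23933356 to 23935759, plus strand). It was at 135, 142 and 135 FPKM in control and at 179, 201 and 168 in RA, with no overlap (log2 change 0.41 ± 0.08, SE, limma adjusted p = 0.00774). HSPA1L was far weaker, at 1.0 ± 0.04 and 0.707 ± 0.102 FPKM (SD), a log2 change of −0.23 (limma adjusted p = 0.0812). The ratio was higher in RA by 0.64 ± 0.11 (SE, limma adjusted p = 0.00354). LOC102166967, tail to tail with TMEM245, behaved alike. It was at 40.8, 41.8 and 42.8 FPKM in control and at 54.0, 64.8 and 53.3 in RA (log2 change 0.44 ± 0.08, SE, limma adjusted p = 0.00765). TMEM245 had overlapping groups and a log2 change of −0.18 (limma adjusted p = 0.361). The ratio call, 0.63 (limma adjusted p = 0.0392), was lost without control replicates 1, 2 or 3 (limma adjusted p = 0.0944, 0.130 and 0.105). It was also lost with 0.1 in place of 1 added to the FPKM (limma adjusted p = 0.0594) and after a correction for gene length.

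Weaker lncRNAs rose as well. LOC106508380 runs head to head with C2H19orf60 and was at 0.426, 0.252 and 0.222 FPKM in control against 0.716, 0.870 and 1.03 in RA (log2 change 0.53, limma adjusted p = 0.00822). Its partner's groups did not overlap either, with a log2 change of 0.40 (limma adjusted p = 0.0527, and 0.0180 without control replicate 2). LOC106505669, tail to tail with the lipid droplet gene CIDEC, was at 1.77, 1.04 and 1.38 FPKM in control and at 2.26, 2.29 and 2.10 in RA (log2 change 0.44, limma adjusted p = 0.0382). It was not called by edgeR (adjusted p = 0.123) or in limma without RA replicates 1 or 3 or control replicates 2 or 3 (adjusted p = 0.0978, 0.0585, 0.122 and 0.108). CIDEC was under 0.5 FPKM and was not tested.

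LOC110261280 is tail to tail with GAPDHS, the glycolytic enzyme of sperm, and was at 0.947, 1.35 and 1.10 FPKM in control against 1.76, 2.15 and 1.62 in RA. The log2 change was 0.41 (limma adjusted p = 0.0326), and the call was lost without RA replicate 1 or control replicates 1 or 3 (limma adjusted p = 0.0735, 0.105 and 0.101). GAPDHS had a log2 change of 0.17 (limma adjusted p = 0.2). The other 4 rises, chosen after their values were seen, were LOC102166500 opposite LOC100519022 (0.35), LOC100514807 opposite DENND2A (0.30), LOC106504831 inside the synaptic scaffold gene DLG2 (0.30) and LOC106505390 opposite C4H1orf52 (0.30). Each of these 4 had a limma adjusted p between 0.0224 and 0.0362 and lost its call in at least 4 of the fits without 1 library, RA replicate 1 and all 3 controls among them.

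Whether a lncRNA changed differently from its partner was tested on the difference of their log2(FPKM + 1) values, over all 1353 opposite-strand pairs in the table. This difference is the log2 of the ratio of the FPKM values with 1 added to each, and is called the ratio here. For a gene near or under 1 FPKM it can differ much from the change in relative level. The ratio was higher in RA in 20 of the 200 lncRNA pairs and lower in 20. This share of 20.0% lies below the 24.8% called over all such pairs and the 25.6% among coding pairs. In 26 of these 40 pairs only the partner was called, in 6 only the lncRNA and in 8 neither. On the log2(FPKM + 1) scale the partner's change was the larger in 30. That scale shrinks the changes of weak genes most, and most lncRNAs were weaker than their partner, so this tally leans towards the partner. Without 1 library the number higher ran from 8, without control replicate 2, to 24 and the number lower from 11, also without control replicate 2, to 25. Ratios called in all 6 such fits numbered 17. With the minimum of 0.5 FPKM required of the lncRNA in both groups, 19 ratios were higher and 14 lower.

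The pseudocount of 1 flattens the changes of lncRNAs that are under a few FPKM, and the ratio call of several pairs in which the lncRNA fell changed with it. With a pseudocount of 0.1, 31 ratios were called, of which 26 were among the 40. The others of the 40 lost their call, and 3 of them are given here, chosen after their values were seen. LOC110257438 to MYL9 went from a limma adjusted p of 0.04925 to 0.2565. LOC106508065 to SCARA3 went from 0.04925 to 0.2893 and LOC102164231 to PML from 0.02955 to 0.2663 (limma adjusted p). The 5 added all had a called lncRNA. In LOC106505568 to CSRNP1 the ratio change was −0.18 (limma adjusted p = 0.281) with a pseudocount of 1 and −0.86 (limma adjusted p = 0.0172) with 0.1. In LOC106510666 to PPP4R1 it was −0.20 (limma adjusted p = 0.295) and −0.88 (limma adjusted p = 0.0259). In LOC110255499 to ATXN7L1 it was −0.36 (limma adjusted p = 0.0502) and −0.93 (limma adjusted p = 0.0116). In LOC102165822 to RAB18 it was −0.31 (limma adjusted p = 0.1) and −1.18 (limma adjusted p = 0.00554), and in LOC102159358 to CLMN −0.43 (limma adjusted p = 0.073) and −1.10 (limma adjusted p = 0.0324). As a share of the partner's FPKM, LOC106505568 went from 3.40% to 1.73%, LOC106510666 from 2.42% to 1.15%, and LOC110255499 from 36.5% to 17.4%.

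The largest shift between partners was at HP, which encodes the haemoglobin-binding protein haptoglobin. Its tail-to-tail neighbour is the row named TXNL4B, which shares its symbol with a splicing factor gene and is typed as non-coding in the table. HP was at 2.02, 2.01 and 1.90 FPKM in control and at 25.1, 38.8 and 28.1 in RA, a mean 15.5-fold higher (log2 change 3.39 ± 0.15, SE, limma adjusted p = 1.13e-05). TXNL4B was at 3.64, 4.04 and 4.11 FPKM in control and at 4.73, 5.26 and 4.83 in RA, above all controls, but its log2 change of 0.27 did not pass (limma adjusted p = 0.0671; edgeR adjusted p = 0.0416). The ratio fell by 3.12 ± 0.15 (SE, limma adjusted p = 1.69e-06). TXNL4B thus went from 199% of HP's level to 16.1%.

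Of the 20 pairs whose ratio was lower in RA, 15 had a partner that rose and 2 a lncRNA that fell. RIPOR3, head to head with LOC106506715, went from 0.488 ± 0.062 to 2.05 ± 0.07 FPKM (SD, log2 change 1.04, limma adjusted p = 0.000151), while the lncRNA had 0.12 (limma adjusted p = 0.36). The ubiquitin ligase gene MARCH3 rose from 32.8 ± 1.3 to 54.7 ± 1.9 FPKM (SD, log2 change 0.72, limma adjusted p = 0.000186), and LOC106509548 inside it had a log2 change of −0.23 (limma adjusted p = 0.296). NPM1, the nucleolar protein nucleophosmin, rose from 114 ± 7.3 to 153 ± 3.7 FPKM (SD, log2 change 0.42, limma adjusted p = 0.00317). LOC102158455, which overlaps its 5' end by 37 bases, was at 0.659, 0.803 and 0.847 FPKM in control and at 0.442, 0.529 and 0.173 in RA (log2 change −0.36, limma adjusted p = 0.0544, and 0.0207 without RA replicate 2).

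NPFFR2, a neuropeptide receptor gene, rose from 0.592 ± 0.290 to 1.51 ± 0.09 FPKM (SD, log2 change 0.67, limma adjusted p = 0.0105). LOC110262123, tail to tail with it, went the other way without passing, from 0.954, 0.533 and 0.675 FPKM to 0.0887, 0.424 and 0.414 (log2 change −0.40, limma adjusted p = 0.0706, and 0.0382 without RA replicate 2). The groups of both genes were apart. The ratio changes of RIPOR3, MARCH3, NPM1 and NPFFR2 with their lncRNAs were −0.92, −0.95, −0.78 and −1.07, and each was called in all 6 fits without 1 library. Their limma adjusted p were 0.00103, 0.00281, 0.0019 and 0.00493. The lncRNAs LOC102158455 and LOC110262123 had a mean under 0.5 FPKM in RA, and RIPOR3 had one in control. Each of them entered only through the group in which it is high, so the ratio changes of these pairs are partly set by the choice. Leaving out a library does not remove this limit.

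**Figure D5:**
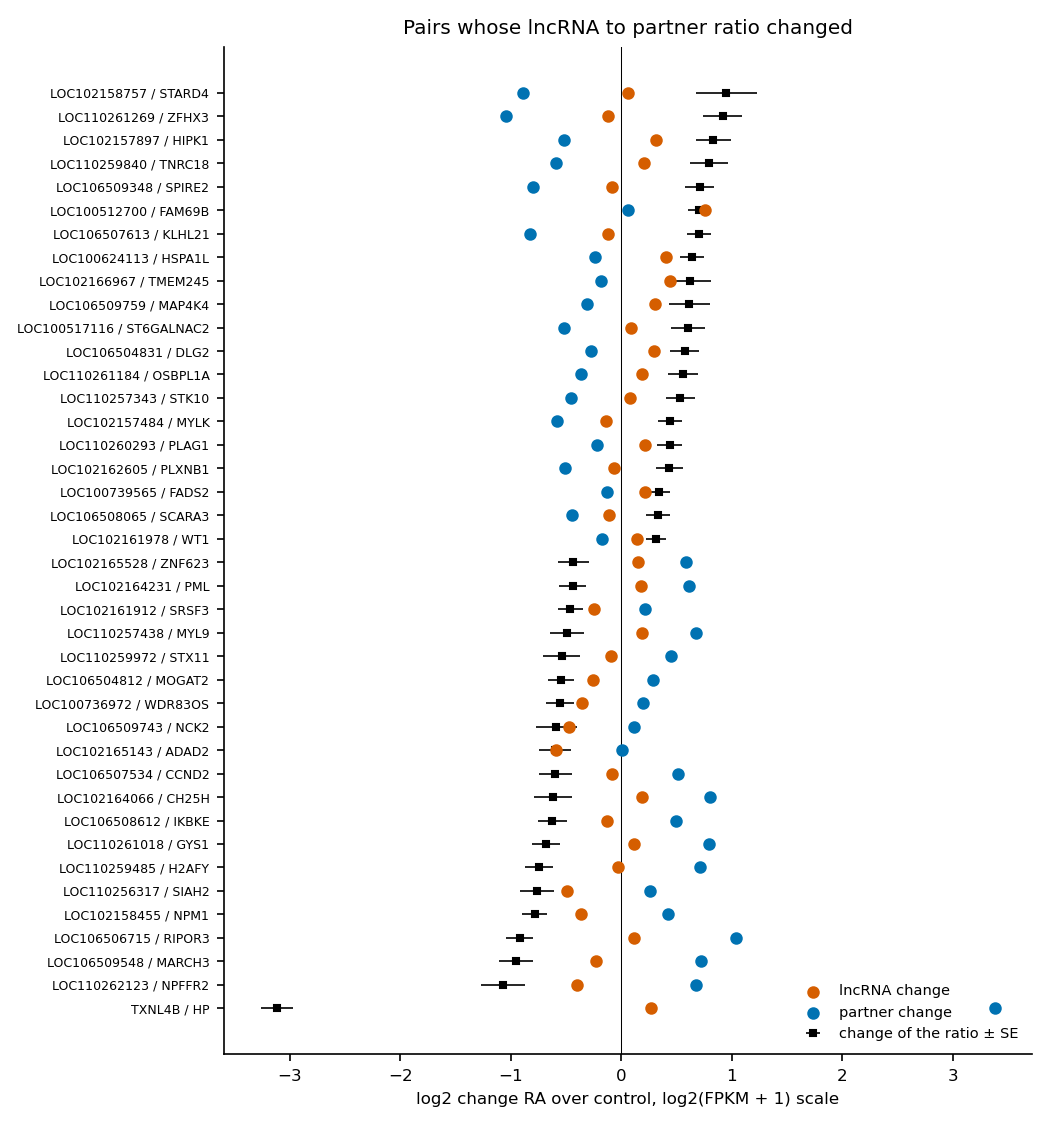
Log2 change in RA over control of the lncRNA (orange), the partner gene (blue) and their ratio (black squares, with SE bars) on the log2(FPKM + 1) scale, for the 40 pairs whose ratio was called. The lncRNA points lie between −0.59 and 0.76, and the partner points spread from −1.04 for ZFHX3 to 3.39 for HP.

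Of the 20 pairs whose ratio was higher in RA, 11 had a partner that fell and 4 a lncRNA that rose. SPIRE2, an actin nucleator, fell from 11.4 ± 0.4 to 6.18 ± 0.76 FPKM (SD, log2 change −0.80, limma adjusted p = 0.00106), and TNRC18, a chromatin protein gene, from 22.5 ± 0.9 to 14.6 ± 0.5 FPKM (SD, log2 change −0.59, limma adjusted p = 0.000777). Their lncRNAs LOC106509348 and LOC110259840 had overlapping groups, with log2 changes of −0.08 and 0.21 (limma adjusted p = 0.7 and 0.374). The ratios rose by 0.71 (limma adjusted p = 0.00493) and 0.80 (limma adjusted p = 0.0102), the second of which was lost after a correction for gene length (limma adjusted p = 0.132).

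In the next 3 pairs the partner's change was most marked in RA replicate 2. ZFHX3, a large zinc finger and homeodomain transcription factor, was at 8.06, 10.3 and 11.5 FPKM in control and at 4.69, 2.42 and 6.53 in RA (log2 change −1.04, limma adjusted p = 0.0266). STARD4, a cholesterol carrier, was at 8.95, 10.3 and 11.6 FPKM and at 5.73, 2.80 and 7.69 (log2 change −0.89, limma adjusted p = 0.0487). HIPK1, a nuclear kinase, was at 13.9, 15.0 and 14.7 FPKM and at 10.6, 7.23 and 12.3 (log2 change −0.52, limma adjusted p = 0.0544). RA replicate 2 was the lowest library for each of the 3.

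The lncRNAs of these pairs were weak. LOC110261269, opposite ZFHX3, had overlapping groups and a log2 change of −0.12 (limma adjusted p = 0.651). The ZFHX3 call was lost without RA replicate 1 and without control replicates 2 or 3 (limma adjusted p = 0.0573, 0.0963 and 0.0969), but the ratio change of 0.92 (limma adjusted p = 0.00571) was called in each fit without 1 library. LOC102158757 overlaps STARD4 by 14 bases and had a log2 change of 0.06 (limma adjusted p = 0.571). Its ratio call, 0.95 (limma adjusted p = 0.0329), and the STARD4 call were lost without RA replicate 1 and without control replicates 1, 2 or 3. The ratio then had limma adjusted p of 0.0591, 0.0841, 0.0976 and 0.106, and STARD4 had 0.0805, 0.0893, 0.138 and 0.148. In edgeR, STARD4 had an adjusted p of 0.0815. With a pseudocount of 0.1 the ratio call was lost as well (limma adjusted p = 0.0577).

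LOC102157897 parted from its neighbours in both directions. It spans chromosome 4 from base 106563408 to base 106578834 on the plus strand, overlapping HIPK1 at its 3' end and containing OLFML3, a secreted matrix glycoprotein gene. The lncRNA was at 0.664, 0.650 and 0.721 FPKM in control and at 0.887, 0.989 and 1.44 in RA, with groups apart and a log2 change of 0.32 (limma adjusted p = 0.0748). OLFML3 rose from 5.06 ± 0.09 to 41.1 ± 3.0 FPKM (SD), 8.12-fold (log2 change 2.79, limma adjusted p = 1.43e-06). The ratio of the lncRNA to HIPK1 was higher in RA by 0.83 (limma adjusted p = 0.00547) and to OLFML3 it was lower, with a log2 change of −2.48 (limma adjusted p = 1.23e-05). Of the fits without 1 library, those without RA replicates 2 and 3 called HIPK1 itself (limma adjusted p = 0.0158 and 0.0183).

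FADS2, a fatty acid desaturase gene at 229 ± 7.4 FPKM in control and 210 ± 11 in RA (SD), has 2 antisense members. LOC100739565, head to head with it, was at 0.616, 0.498 and 0.636 FPKM in control and at 0.752, 1.09 and 0.702 in RA, with a ratio change of 0.35 (limma adjusted p = 0.0243). That call was lost without RA replicate 1 and without control replicates 2 or 3 (limma adjusted p = 0.0732, 0.088 and 0.073). LOC106509334, inside FADS2, had overlapping groups, and its ratio change was 0.00 (limma adjusted p = 0.999).

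Further partners in the 40 pairs have known roles and were chosen here after their values were seen. H2AFY, the histone variant macroH2A1, rose from 8.70 ± 0.33 to 14.9 ± 0.47 FPKM (SD, log2 change 0.72, limma adjusted p = 0.0004), while LOC110259485 was at 0.584 ± 0.078 and 0.553 ± 0.127 FPKM. GYS1, the glycogen synthase of muscle and other tissues, rose from 36.3 ± 2.3 to 63.8 ± 3.0 FPKM (SD, log2 change 0.80, limma adjusted p = 0.000222), and LOC110261018 inside it had a log2 change of 0.12 (limma adjusted p = 0.426). The ratio call of this pair was lost with a pseudocount of 0.1 (limma adjusted p = 0.0952). CCND2, a cyclin of the G1 phase, was at 21.2, 19.5 and 19.5 FPKM in control and at 27.9, 27.9 and 31.6 in RA, with a log2 change of 0.52 (limma adjusted p = 0.00251). Its head-to-head lncRNA LOC106507534 had overlapping groups and a log2 change of −0.08 (limma adjusted p = 0.648). The ratio call of the CCND2 pair (limma adjusted p = 0.0181) was lost without RA replicate 1, without control replicates 2 or 3 and with a pseudocount of 0.1 (limma adjusted p = 0.0656, 0.0808, 0.0730 and 0.0631). KLHL21, an adaptor of a ubiquitin ligase of cell division, fell from 41.3 ± 3.8 to 22.9 ± 1.0 FPKM (SD, log2 change −0.82, limma adjusted p = 0.000383), beside LOC106507613 with −0.12 (limma adjusted p = 0.352). MYLK, the kinase of the myosin light chain in smooth muscle, fell from 32.5 ± 2.5 to 21.5 ± 3.0 FPKM (SD, log2 change −0.58, limma adjusted p = 0.00745), against the rise of the 5 myoid markers and of MYL9. Its ratio call was lost without control replicates 2 or 3 (limma adjusted p = 0.0679 and 0.0518).

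Among genes of retinoid signalling and testis identity, WT1 was the only one in the list used here to be the partner of a member. WT1 encodes a transcription factor of Sertoli cells. LOC102161978 overlaps its 5' end head to head by 146 bases on chromosome 2 (lncRNA bases 28358562 to 28411612, minus strand). The lncRNA was at 16.7, 13.9 and 14.5 FPKM in control and at 16.1, 16.5 and 17.6 in RA, so the groups overlapped (log2 change 0.15, limma adjusted p = 0.238). WT1 was at 39.5, 38.3 and 35.1 FPKM in control and at 34.5, 32.6 and 32.9 in RA, without overlap and without passing (log2 change −0.17, limma adjusted p = 0.101). The ratio was higher in RA by 0.32 ± 0.09 (SE, limma adjusted p = 0.0392). Of the fits without 1 library, that without RA replicate 2 kept this call; the limma adjusted p was 0.0549 and 0.101 without RA replicates 1 and 3, and 0.0631, 0.135 and 0.0730 without control replicates 1, 2 and 3. After a correction for gene length it was 0.308, and with a pseudocount of 0.1 it was 0.05065. The call was also lost with a term for the replicate number in the model.

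The members of highest FPKM were mostly steady. After LOC100624113, with a mean of 160 FPKM, came the row named NDUFA4 (80.4), HNRNPU (63.0), LOC102166967 (49.6), TGOLN2 (44.6) and LOC100514924 (32.2). Of the 227 members, 8 carry the symbol of a protein-coding gene, namely CHRNE, HNRNPU, NDUFA4, NHLRC3, SWI5, TGOLN2, TMEM159 and TXNL4B. RefSeq's pig annotation types 7 of these rows as lncRNA, as it does the 219 members without such a symbol, and gives the NDUFA4 row as a pseudogene of 482 bases with no intron inside SMARCC1. Its reads may be shared with the NDUFA4 gene elsewhere, so its level is uncertain.

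NDUFA4 was at 81.0, 77.0 and 82.1 FPKM in control and at 78.5, 88.5 and 75.1 in RA, with overlapping groups (log2 change 0.01, limma adjusted p = 0.938). HNRNPU was at 61.3, 69.2 and 68.6 FPKM in control and at 67.9, 46.8 and 64.1 in RA, lowest in RA replicate 2 (log2 change −0.17, limma adjusted p = 0.38). Its partner LOC100739755 was listed at 0 in all but 1 library. TGOLN2 is tail to tail with RETSAT, which encodes retinol saturase, an enzyme of vitamin A metabolism. TGOLN2 was at 46.3, 45.4 and 48.9 FPKM in control and at 42.2, 40.7 and 44.2 in RA, and RETSAT at 23.0 ± 0.6 and 21.2 ± 0.4 (SD). Both were lower in every RA library without passing (log2 changes −0.14 and −0.12, limma adjusted p = 0.127 and 0.193).

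LOC100514924 contains SYCE1, a component of the synaptonemal complex of meiotic chromosomes, and was at 32.8, 28.9 and 26.7 FPKM in control and at 33.4, 38.7 and 32.5 in RA. The groups overlapped, and the log2 change was 0.24 (limma adjusted p = 0.114). SYCE1 was at 1.93 ± 0.41 and 1.92 ± 0.30 FPKM (SD), a log2 change of −0.00 (limma adjusted p = 0.998).

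The machinery that edits, senses or cuts paired RNA strands was counted beside the pairs. Of 26 such genes tested, 5 rose and none fell, with a median change of 0.05. Among the 5 were DHX58 (0.86) and OAS2 (0.70), which act in the interferon response to double-stranded RNA, ILF2 (0.60), and TARBP2 (0.28), a partner of Dicer. The rise share of 5 in 26 compares with 13.9% of all genes. ADAR, which edits adenosines in paired RNA, had 23.5 ± 0.4 FPKM without and 23.8 ± 0.9 FPKM with RA (SD), and DICER1 had 6.49 ± 0.48 and 5.01 ± 1.41 FPKM (SD). Neither passed (log2 changes 0.02 and −0.34, limma adjusted p = 0.837 and 0.175).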

How the data were processed

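Per the labels, 6 libraries of total RNA were sequenced, 3 control and 3 RA. The main table that the authors deposited holds FPKM values per gene and library, with each gene's length, type, strand and position, per the file headers. For the genes called by the authors, 2 further deposited tables hold raw counts of each library, a log2 fold change, a p-value and an FDR. Not given in the sources used here are the aligner, counter, strand setting, build and test.

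The row listed as KRT7 was left out. Members were paired with opposite-strand coding rows by overlap of at least 1 base. The 14567 genes that averaged 0.5 FPKM or more were fitted on the log2(FPKM + 1) scale, a pseudocount of 1, with limma 3.58.1 (R 4.3.3). The model had a variance trend and no term but the group. Tests were two-sided, adjusted by Benjamini-Hochberg, with a threshold of 0.05. All fold changes on the log2 scale understate low genes. The same model was fitted to the log2 difference within 1353 opposite-strand pairs. Multiplying FPKM by length and library total returned whole numbers, within 0.05, for between 99.8% and 99.9% of each library's values above 0. These reads went into edgeR 4.0.16 and DESeq2 1.42.0 as alternatives, without 42 genes that were not whole in every library, NDUFA4 among the members. The limma fits were also run on simulated counts with known changes and the same spread for all genes, a simpler setting than these data. No result here rests on that run. Exact permutation of 3 against 3 libraries cannot fall below 0.10, so it was not used.

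Named pairs are the 8 largest rises and 8 largest falls with an adjusted p under 0.05 and no overlap of groups, the 6 largest ratio changes each way, the 6 members of highest FPKM, up to 6 pairs with both genes called the same way and up to 6 with opposite calls, partners in a list of retinoid and testis genes, and the 3 members nearest each side of the threshold. Outside this rule, and given after their values were seen, are also the pairs of LOC110257438 with MYL9 and LOC110257343 with STK10. The same holds for LOC100739565 and LOC106509334 with FADS2, and for OLFML3 as the second partner of LOC102157897. Other pairs outside the rule are marked where they appear. The members and lists were chosen with earlier results of these data known. The 227 members all matched a RefSeq pig table (Sscrofa11.1), 224 with the same coordinates. No sequence was used. Some members and genes that meet the rule are not reported here, but are included in all counts.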

Additional observations from a re-analysis of the deposited data

How the results depend on the processing

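The alternatives were pseudocounts of 0.1 and 0.5, a filter of mean FPKM 1 or none, median-ratio and quantile scaling, a correction for gene length, array weights, edgeR, DESeq2, a replicate block, an overlap of at least 200 bases, every partner, no minimum length and each library left out. Added after seeing the data were a minimum of 0.5 FPKM in both groups and leaving out members with a gene symbol. No call changed sign. For each count, the main value is followed by those that moved. lncRNAs higher, 13, were 5 to 13 with 1 library left out, 31 with array weights and 8 with no filter. lncRNAs lower, 14, were 7 to 20, 40, and 9 with no filter, 7 with the filter of FPKM 1, 25 with the length correction and 9 with the minimum in both groups. Partners higher, 28, were 22 to 31, 46 with array weights and 18 with the minimum in both groups, and partners lower, 23, were 12 to 32 and 55. All genes higher, 2019, were 1202 to 2258, 3410 and 1340 with no filter, and all genes lower, 1750, were 1005 to 2256 and 3621. Ratios higher, 20, were 8 to 24, 35 with array weights, 13 with the filter of FPKM 1 and 13 with the length correction, and ratios lower, 20, were 11 to 25, 34 and 11. Pairs called in the same direction, 7, were 3 to 9 and 27, and 4 with the filter of FPKM 1, no filter or the minimum in both groups. Pairs called in opposite directions, 0, were 0 to 2, 9 with array weights, 2 with DESeq2, 2 with the length correction and 1 with quantile scaling. The array weights did not fully converge. The cause of these shifts was not tested. The split of called lncRNAs was 19 higher and 10 lower with quantile scaling (65.5% higher against 48.1%) and 10 and 25 with the length correction (28.6%). Same-numbered libraries deviated from their group means with correlations of −0.21, −0.09 and 0.34. Libraries with different numbers ran from −0.37 (control 1 with RA 3) to 0.37 (control 1 with RA 2). With 3 libraries per group these values cannot tell whether the replicate numbers pair the libraries. With the replicate block the counts were 9 and 11 lncRNAs, 27 and 21 partners, 23 and 18 ratios, 7 same-direction pairs and 1 opposite pair. Low read numbers limit the weak members most: at 64 reads in all, only large changes can pass.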
